A study of Mus musculus with 9 samples.

Results

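Glucose enters mammalian cells through facilitative carriers of the Slc2a (GLUT) family, and the RNA of 9 of these carriers was examined together with that of *Txnip*, whose product regulates them, in mouse embryonic fibroblasts (MEFs) labelled WT, *Atm-/-* or *Sirt6-/-*. The genes were chosen by symbol: *Slc2a1*, *Slc2a3*, *Slc2a4*, *Slc2a6*, *Slc2a8*, *Slc2a9*, *Slc2a10*, *Slc2a12*, *Slc2a13* and *Txnip*, which are 10 of the 24341 genes in the count tables. *Slc2a1* carried most of the transporter RNA in all 9 samples. Its share was 86.7% ± 2.20 in WT, 84.9% ± 1.22 in *Atm-/-* and 69.05% ± 1.22 in *Sirt6-/-* MEFs (SD, n = 3 each). *Slc2a6*, nearly silent in WT MEFs, was the runner-up in both mutant-labelled groups, and *Slc2a10* RNA was lower in both.

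RNA-Seq had been performed on 3 WT, 3 *Atm-/-* and 3 *Sirt6-/-* samples of C57BL/6 MEFs grown in DMEM with 10% FBS, to ask how loss of either gene affects glycolysis. ATM is a kinase of the DNA damage response, and SIRT6 is a chromatin deacylase that represses glycolytic genes. The treatment notes of every sample name wildtype, *Sirt6-/-*, *P53-/-* and *Atm-/-P53-/-* mice as sources of the cells without saying which sample came from which mice, and the study's list of materials gives immortalized *Atm-/-; p53-/-* and *Sirt6-/-* MEF lines from separate laboratories. No source used here says whether the samples of one genotype were separate cultures or embryos, so p-values measure only the spread between these samples, which may be technical. Line of origin, p53 status and genotype cannot be told apart in these comparisons.

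The targeted genes were read first. *Sirt6* had 487, 402 and 472 reads in WT and 4, 5 and 7 in *Sirt6-/-* samples. *Atm* had 1536, 1617 and 1627 reads in WT and 3768, 3564 and 3443 in the samples labelled *Atm-/-*, so its RNA was higher, not lower, under that label. The allele is not described, a gene-level count cannot show whether the RNA is intact, and *Atm-/-* is used below as the label only. *Trp53*, the gene of p53, fell from 117 ± 5.26 normalized RPKM in WT to 13.9 ± 1.23 in the samples labelled *Atm-/-* and was 149 ± 1.49 in *Sirt6-/-* (mean ± SD, n = 3 each). In bulk RNA, fewer cells of a type and less RNA per cell cannot be told apart.

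The libraries held 32187040 to 33837949 counted reads, so 3 reads correspond to 0.0887 to 0.0932 CPM (counts scaled to a common library total). All 8 fibroblast markers were present. Their summed level was 25660 to 28560 CPM in WT, 9081 to 9341 in *Atm-/-* and 17930 to 18380 in *Sirt6-/-*, and single markers went both ways. In the samples labelled *Atm-/-* 7 were lower than in WT and *Thy1* was higher (log2 fold change 1.83), and in *Sirt6-/-* 6 were lower, *Thy1* reaching 0.472 CPM, and *Pdgfrb* (1.31) and *Col1a2* (0.72) were higher. The adipocyte list, mostly *Fabp4*, summed to 4.46 to 6.21 CPM in WT, 13.2 to 17.9 in *Atm-/-* and 13.9 to 18.6 in *Sirt6-/-*, with *Plin1* and *Cidec* at 0 in every sample. Muscle markers summed to at most 1.44 CPM, with *Myog* and *Ckm* at 0. The neural list, mostly *Tubb3*, summed to 2.02 to 2.59 CPM in WT, 11.2 to 15.5 in *Atm-/-* and 30.6 to 31.7 in *Sirt6-/-*, with *Snap25* at 0 in WT and *Sirt6-/-* and *Gfap* at 0 in *Atm-/-*. The next sums are given for WT, *Atm-/-* and *Sirt6-/-* in turn. Epithelial markers summed to 19.2 to 22.1, 90.9 to 98.1 and 18.4 to 21.4 CPM. In *Atm-/-* that was mostly *Krt19* (48.4 CPM) and *Krt18* (29.6 CPM). *Cdh1* was also called higher there, and *Krt8* and *Epcam* were not. Endothelial markers, mostly *Kdr* in WT and *Atm-/-*, summed to 2.95 to 4.86, 10.3 to 13.1 and 0.652 to 0.992 CPM. The 4 leukocyte markers listed, mostly *Cd14*, summed to 8.57 to 9.61, 19.2 to 21.4 and 16.5 to 20.1 CPM. The part of these differences in the results was not tested. WT sample 2 stood apart from the other WT samples, with a chi-square per gene of 16.4 and 15.1 against them, whereas all other pairs within a genotype lay between 5.24 and 6.88. Scaling by library totals in place of TMM (a scaling that centres most genes at no change) moved the median log2 fold change of all genes by 0.16 in *Atm-/-* against WT, and the share of called genes that were higher went from 50.8% to 64.9%.

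GLUT proteins move hexoses down their gradient, so the carriers at the cell surface and the phosphorylation of glucose inside set how much is taken up. GLUT1, encoded by *Slc2a1*, is the widespread carrier of basal uptake in fibroblasts. GLUT4 answers to insulin in muscle and fat, and other members sit on inner membranes or prefer other substrates. TXNIP, an alpha-arrestin, promotes endocytosis of GLUT1, and its gene is switched on by glucose through MondoA or ChREBP with the partner Mlx.

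In the mouse genome (GRCm38, positions from GENCODE M21), *Slc2a1* spans chr4:119108711-119137983 on the plus strand, *Slc2a6* chr2:27021363-27027998 on the minus strand, *Slc2a10* chr2:165503787-165519917 on the plus strand and *Txnip* chr3:96557957-96561883 on the plus strand. *Slc2a3* lies at chr6:122727809-122801640, *Slc2a4* at chr11:69942539-69948188, *Slc2a8* at chr2:32972990-32982083, *Slc2a9* at chr5:38349273-38503143 and *Slc2a13* at chr15:91267696-91573261, all on the minus strand, and *Slc2a12* at chr10:22645011-22704285 on the plus strand. All 10 are annotated as protein-coding genes, and read counts were given per gene. *Slc2a1* shares exonic bases with the antisense gene *Gm12868*, for which no counts were used.

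The 250 bases before the RefSeq start (GRCm38.p6) are shown for *Slc2a6* and *Txnip*, a carrier that rose and the regulator that fell in both mutant-labelled groups, because the window of each ends before the annotated transcript. They are chr2:27027999-27028248 on the minus strand and chr3:96557707-96557956 on the plus strand. Letters run 5′ to 3′ along the gene, and capitals mark matches on either strand to the motifs named after them.
Slc2a6: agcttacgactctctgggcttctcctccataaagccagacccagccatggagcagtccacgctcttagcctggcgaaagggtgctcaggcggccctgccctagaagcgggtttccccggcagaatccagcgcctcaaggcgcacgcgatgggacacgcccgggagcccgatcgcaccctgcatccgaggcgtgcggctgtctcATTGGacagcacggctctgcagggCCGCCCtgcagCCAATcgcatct
Txnip: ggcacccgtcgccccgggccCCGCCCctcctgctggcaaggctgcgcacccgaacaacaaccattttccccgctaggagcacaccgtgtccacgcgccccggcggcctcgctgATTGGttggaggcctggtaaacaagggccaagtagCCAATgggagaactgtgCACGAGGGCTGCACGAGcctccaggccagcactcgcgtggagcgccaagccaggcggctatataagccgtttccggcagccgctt
The motifs searched on both strands were the E-box CACGTG, the hypoxia response core ACGTG (contained in that E-box), the GC box GGGCGG and the CCAAT box. They are found in 6.02%, 16.6%, 32.7% and 33.8% of 32851 RefSeq windows of the same length. *Slc2a6* held a GC box at -23 to -18 and CCAAT boxes at -47 to -43 and -12 to -8 from its start. *Txnip* held a GC box at -230 to -225 and CCAAT boxes at -137 to -133 and -102 to -98. Its window also held a carbohydrate response element of the kind read by MondoA and Mlx, searched as the motif CACGAG repeated after a gap of 5 bases, at -85 to -69. That exact spelling was chosen after the window had been seen, so its match in *Txnip* was fixed in advance. Of the 32851 windows, 1, that of *Txnip*, held it, and other spellings of the element were not searched. *Slc2a1* held the hypoxia response core at -36 to -32 and GC boxes at -45 to -40 and -20 to -15, and *Slc2a10* held GC boxes at -34 to -29 and -9 to -4 and a CCAAT box at -44 to -40. These windows end at chr4:119108744 and chr2:165503896, past the GENCODE starts at 119108711 and 165503787. The *Slc2a10* motifs, the nearer *Slc2a1* GC box and part of its hypoxia response core thus lie inside the annotated genes. Windows were found for 8 of the 10 members, *Slc2a3* and *Slc2a4* being the others, and none held the E-box.

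Levels between genes are compared as normalized RPKM, which are reads per kilobase of the listed transcript length, scaled to a common TMM-adjusted library total. *Slc2a1* stood at 29.1 ± 0.979 in WT, 46.0 ± 1.44 in *Atm-/-* and 35.0 ± 1.47 in *Sirt6-/-* (mean ± SD, n = 3 each). Behind it in WT came *Slc2a8* at 2.27 ± 0.714 and *Slc2a10* at 1.89 ± 0.248, whose samples overlapped. All further transporters were at or below 0.115 on average in WT. In *Atm-/-* the order was *Slc2a1*, *Slc2a6*, *Slc2a8*, *Slc2a3* and *Slc2a10*, with no overlap between neighbours, and the others averaged 0.0550 or less. In *Sirt6-/-* the order was *Slc2a1*, *Slc2a6* and *Slc2a8*, again without overlap, followed by 6 transporters at 0.280 or less in which each neighbouring pair overlapped. The listed length is one value per gene, so a gene that used a shorter or longer transcript would be misplaced in this order.

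**Figure D1:**
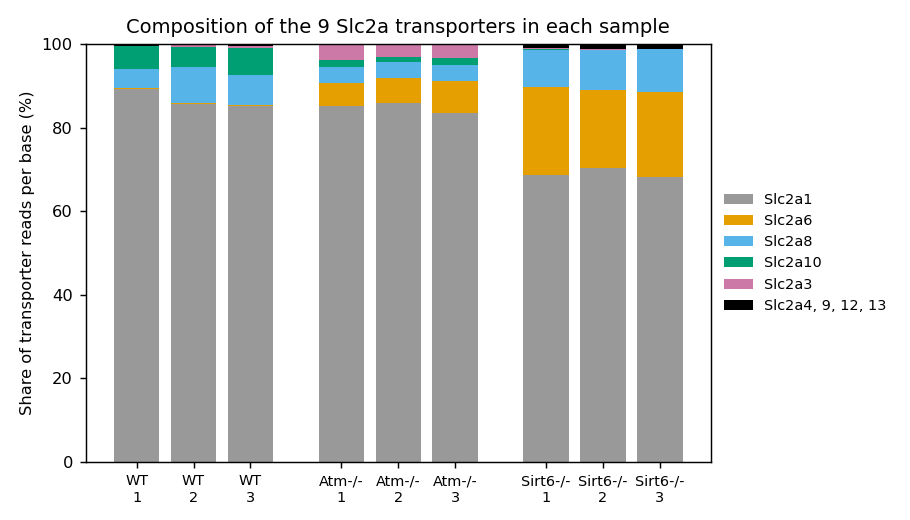
Share of each Slc2a transporter in the transporter RNA of each sample, as a percentage of reads per base summed over the 9 transporters (vertical axis), for 3 WT, 3 *Atm-/-* and 3 *Sirt6-/-* samples. *Slc2a1* fills 85.1% to 89.2% of the WT bars and 68.1% to 70.4% of the *Sirt6-/-* bars, where *Slc2a6* fills the largest part of the rest.

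Shares were taken per sample as reads per base of a transporter over the sum of the 9, so they do not depend on library scaling, and a rise of one share must lower another. *Slc2a1* held 89.2%, 85.7% and 85.1% in the WT samples, 85.2%, 86.0% and 83.6% in *Atm-/-*, and 68.6%, 70.4% and 68.1% in *Sirt6-/-*. The *Sirt6-/-* samples lay below all others, whereas *Atm-/-* and WT overlapped. The mean difference from WT was -17.6 points in *Sirt6-/-* (SE 1.45, exact two-sided permutation p = 0.1) and -1.75 points in *Atm-/-* (SE 1.45, exact permutation p = 0.5). *Sirt6-/-* differed from *Atm-/-* by -15.9 points (SE 0.998, exact permutation p = 0.1). With 3 samples against 3 the smallest p is 0.1, so this test cannot pass 0.05. The 95% Wilson interval of the *Slc2a1* read share spanned 1.94 to 2.83 points per sample, for counting error only.

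The remaining share was divided differently in each genotype. *Slc2a6* held 0.250% ± 0.0255 in WT, 6.31% ± 1.08 in *Atm-/-* and 20.05% ± 1.28 in *Sirt6-/-*. *Slc2a8* held 6.73% ± 1.95, 3.87% ± 0.0277 and 9.54% ± 0.761 in the same order. *Slc2a10* shrank from 5.63% ± 0.882 in WT to between 1.23% and 1.70% in the *Atm-/-* samples, and to 0.0775% ± 0.0607 in *Sirt6-/-*. These 3 carriers together made up most of what *Slc2a1* left, except that *Slc2a3* reached 3.21% ± 0.342 in *Atm-/-* against 0.342% ± 0.259 in WT and 0.120% ± 0.112 in *Sirt6-/-* (SD, n = 3 each). *Slc2a4*, *Slc2a9*, *Slc2a12* and *Slc2a13* each stayed at or below 0.554% on average.

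The lower *Slc2a1* share in *Sirt6-/-* went with a higher, not a lower, level of *Slc2a1*. Summed over the 9 transporters, normalized RPKM were 33.6 ± 1.07 in WT, 54.2 ± 1.28 in *Atm-/-* and 50.7 ± 1.79 in *Sirt6-/-* (n = 3 each). The 8 transporters other than *Slc2a1* summed to 4.49 ± 0.788, 8.17 ± 0.634 and 15.7 ± 0.776. In *Sirt6-/-* the sum thus grew mostly outside *Slc2a1*, and in *Atm-/-* mostly within it.

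In the samples labelled *Atm-/-*, *Slc2a1*, *Slc2a3* and *Slc2a6* rose against WT, *Slc2a10* and *Txnip* fell, and *Slc2a8* did not pass the test. Thus 3 of the 6 members tested were called higher and 2 lower (edgeR's quasi-likelihood test, Benjamini-Hochberg adjusted p under 0.05 over all genes), where 34.7% of all 13283 tested genes were called higher and 33.6% lower, 68.4% in all. *Slc2a4*, *Slc2a9*, *Slc2a12* and *Slc2a13* had too few reads to be tested. In *Sirt6-/-* against WT, 5 of 8 tested members were higher (*Slc2a1*, *Slc2a6*, *Slc2a8*, *Slc2a12* and *Slc2a13*) and 2 lower (*Slc2a10* and *Txnip*), beside 39.2% and 37.4% of 13206 genes and 76.6% in all. Between the mutant-labelled groups, *Sirt6-/-* was higher for 5 of 8 tested members and lower for 3, beside 37.8% and 38% of 13460 genes and 75.8% in all. Samples of the compared genotypes did not overlap for 5 of 6 tested members in *Atm-/-* against WT, 7 of 8 in *Sirt6-/-* against WT and 8 of 8 between the mutant-labelled groups, beside 72.7%, 79% and 78.1% of all tested genes. A call was thus common among all genes. Several members passed the filter only through the genotype in which they were high, so their calls and their lack of overlap followed from the filter, and the counts are a description. These were *Slc2a3* and *Slc2a6* in *Atm-/-* against WT, *Slc2a6*, *Slc2a10*, *Slc2a12* and *Slc2a13* in *Sirt6-/-* against WT, and *Slc2a3*, *Slc2a10*, *Slc2a12* and *Slc2a13* between the mutant-labelled groups. Members with at least 10 reads in every sample gave 1 higher and 2 lower in *Atm-/-*, 2 higher and 1 lower in *Sirt6-/-*, and 3 higher and 1 lower between the mutant-labelled groups. The 3 comparisons share samples, and their calls are not independent. Leaving out WT sample 2 gave the same counts of members higher and lower in both comparisons with WT.

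**Figure D2:**
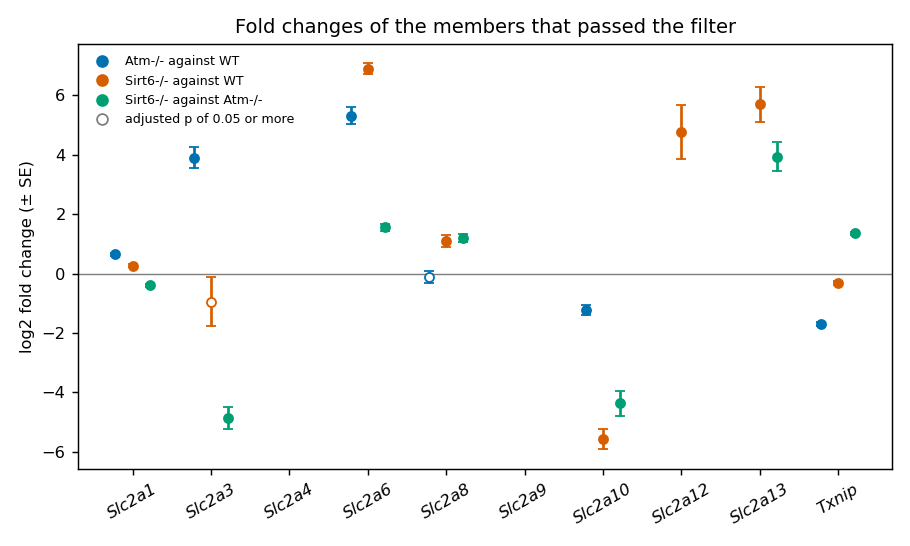
Log2 fold change ± SE (vertical axis) of each member that passed the filter on low counts, for the 3 comparisons of genotypes, from edgeR with 3 samples per genotype. Filled points have an adjusted p under 0.05 and open points do not. *Slc2a6* is the highest point in both comparisons with WT (5.31 and 6.89), and *Slc2a10* the lowest against WT in *Sirt6-/-* (-5.57). *Slc2a12* in *Sirt6-/-* against *Atm-/-* is left out because the *Atm-/-* samples had no read.

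Among the carriers of basal uptake, *Slc2a1* had 2418, 2399 and 2267 reads in WT, 4020, 4296 and 3944 in *Atm-/-*, and 2797, 3014 and 3036 in *Sirt6-/-*. The 3 genotypes did not overlap. Its RNA rose 1.57-fold in *Atm-/-* over WT (log2 fold change 0.65, SE 0.05, adjusted p = 3.8e-08, edgeR). The rise in *Sirt6-/-* was smaller at 1.20-fold (log2 fold change 0.27, SE 0.05, adjusted p = 0.000441, edgeR). *Sirt6-/-* lay 1.32-fold below *Atm-/-* (adjusted p = 1.7e-07, edgeR).

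*Slc2a3* encodes GLUT3, a high-affinity carrier known from neurons. It had 2, 19 and 22 reads in WT, 256, 219 and 237 in *Atm-/-*, and 14, 9 and 0 in *Sirt6-/-*. All *Atm-/-* samples lay far above the others, which overlapped. The rise in *Atm-/-* was 14.9-fold against WT (log2 fold change 3.90, SE 0.36, adjusted p = 2.6e-07, edgeR), and *Sirt6-/-* lay 29.1-fold below *Atm-/-* (adjusted p = 1.5e-10, edgeR). Without *Sirt6-/-* sample 1 the latter log2 fold change moved from -4.86 to -5.62. *Sirt6-/-* did not differ significantly from WT (log2 fold change -0.94, SE 0.82, adjusted p = 0.309, edgeR). That last value ran from -1.70 to -0.36 with single samples left out, the lower end without *Sirt6-/-* sample 1. The WT mean of *Slc2a3* rests on 2 of its 3 samples. In both comparisons with *Atm-/-* the gene passed the filter only through *Atm-/-*, so those calls followed from the filter. The neural list, mostly *Tubb3*, summed to more in both mutant-labelled groups than in WT and was highest in *Sirt6-/-*, where *Slc2a3* was not called higher. Single members differed: *Syt1* was also highest in *Sirt6-/-*, whereas *Snap25* had 12, 19 and 16 reads in *Atm-/-* and 0 in every WT and *Sirt6-/-* sample. The part of these markers in the result was not tested.

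*Slc2a4*, the gene of insulin-responsive GLUT4, was barely detected, with 0, 2 and 2 reads in WT, 2, 6 and 8 in *Atm-/-*, and 4, 14 and 3 in *Sirt6-/-*. Its normalized RPKM averaged 0.0151 in WT, 0.0550 in *Atm-/-* and 0.0762 in *Sirt6-/-*. Reads were pooled over the samples of a genotype and scaled by TMM-adjusted library size. Their ratio to WT was 3.64 in *Atm-/-* (95% exact interval 1.17 to 14.95) and 5.06 in *Sirt6-/-* (1.71 to 20.3), for counting error only. All *Sirt6-/-* samples lay above WT by at least 1 read, whereas *Atm-/-* overlapped WT. The gene did not pass the filter in any comparison. Without the filter its adjusted p was 0.246 in *Atm-/-* and 0.107 in *Sirt6-/-* (edgeR).

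Of the carriers known from inner membranes, *Slc2a6*, the gene of the lysosomal carrier GLUT6, changed most against WT. It had 5, 6 and 6 reads in WT, 214, 246 and 295 in *Atm-/-*, and 717, 663 and 752 in *Sirt6-/-*, with no overlap between any of the genotypes. In level it stood at 0.0841 ± 0.00929, 3.42 ± 0.605 and 10.15 ± 0.501 normalized RPKM (mean ± SD, n = 3 each). *Atm-/-* exceeded WT 39.6-fold (log2 fold change 5.31, SE 0.28, adjusted p = 4.7e-10, edgeR). *Sirt6-/-* exceeded WT 118-fold (log2 fold change 6.89, SE 0.19, adjusted p = 1.3e-13, edgeR) and *Atm-/-* 2.96-fold (adjusted p = 1.2e-10, edgeR). The WT group held only 17 reads, so counting error alone leaves the pooled ratio between 25.1 and 69.7 for *Atm-/-* and between 75.3 and 208 for *Sirt6-/-*. Against WT the gene passed the filter only through the group where it was high, so both calls against WT followed from the filter.

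*Slc2a8* encodes GLUT8, which sits mainly on inner membranes. It had 102, 193 and 152 reads in WT, 147, 156 and 149 in *Atm-/-*, and 290, 330 and 372 in *Sirt6-/-*. *Sirt6-/-* lay above all other samples, and *Atm-/-* fell inside the range of WT. The rise in *Sirt6-/-* was 2.13-fold against WT (log2 fold change 1.09, SE 0.20, adjusted p = 0.000144, edgeR) and 2.30-fold against *Atm-/-* (adjusted p = 1.3e-07, edgeR). *Atm-/-* and WT did not differ significantly (log2 fold change -0.12, SE 0.21, adjusted p = 0.624, edgeR). The sign of that small value turned to 0.11 without WT sample 2 and to 0.04 with library totals.

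*Slc2a10* encodes GLUT10, whose loss causes arterial tortuosity syndrome. It fell in both mutant-labelled groups. Its reads were 198, 181 and 234 in WT, 107, 82 and 99 in *Atm-/-*, and 8, 2 and 3 in *Sirt6-/-*, without overlap between genotypes. *Atm-/-* lay 2.34-fold below WT (log2 fold change -1.22, SE 0.18, adjusted p = 2.9e-05, edgeR). *Sirt6-/-* lay 47.5-fold below WT (log2 fold change -5.57, SE 0.35, adjusted p = 1.7e-09, edgeR) and 20.6-fold below *Atm-/-* (log2 fold change -4.36, SE 0.43, adjusted p = 8.3e-09, edgeR). Both *Sirt6-/-* values depend on sample 1 of that genotype, without which they were -6.34 and -5.13. In both comparisons with *Sirt6-/-* the gene passed the filter only through the other group, so the calls followed from the filter. The summed fibroblast markers were lowest in *Atm-/-*, with 1 of 8 called higher there and 2 of 8 in *Sirt6-/-*, whereas *Slc2a10* was lowest in *Sirt6-/-*. Their part in the result was not tested.

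*Slc2a12* and *Slc2a13* had almost no reads in WT and rose in *Sirt6-/-*. *Slc2a12*, the gene of the glucose carrier GLUT12, had 0, 0 and 2 reads in WT, none in *Atm-/-*, and 12, 17 and 38 in *Sirt6-/-*. Scaled by TMM-adjusted library size, the pooled reads of *Sirt6-/-* were 32.3 times those of WT (67 against 2 reads before scaling, 95% exact interval 8.60 to 272, counting error only). Against *Atm-/-*, with 0 reads, the lower limit of the 95% exact interval of that ratio was 18.5 (counting error only), and setting *Atm-/-* at a floor of 3 reads over the group gave 23.4. Both differences were called (adjusted p = 0.000239 and 1.5e-05, edgeR). *Slc2a12* passed the filter only through *Sirt6-/-*, so both calls followed from the filter. The fitted log2 fold change against WT, 4.77 with an SE of 0.91, became 7.46 without WT sample 3, which held the WT reads, and the value against *Atm-/-* went from 7.52 to 6.92 without *Sirt6-/-* sample 3. With a prior count of 2 they were 3.15 and 3.63, so the fitted size is not well determined. *Slc2a12* shares exonic bases with *Tbpl1* on the other strand, which had 1428, 1199 and 1268 reads in WT, 1361, 1544 and 1368 in *Atm-/-* and 1094, 1091 and 1205 in *Sirt6-/-*. No source used here states that counting used the strand, so reads from the shared bases cannot be assigned by strand. In *Atm-/-*, *Slc2a12* had no read beside these *Tbpl1* reads. In *Sirt6-/-*, where *Slc2a12* was highest, *Tbpl1* had 1091 to 1205. The part of *Tbpl1* reads in the *Slc2a12* counts was not tested.

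*Slc2a13* encodes HMIT, a proton-coupled carrier of myo-inositol. It had 2, 1 and 0 reads in WT, 8, 2 and 2 in *Atm-/-*, and 63, 63 and 54 in *Sirt6-/-*. The *Sirt6-/-* samples stood clear of all others. Scaled by TMM-adjusted library size, its pooled reads in *Sirt6-/-* were 57.8 times those of WT (95% exact interval 19.5 to 283, counting error only). Before scaling they were 180 against 3, and the fitted log2 fold change was 5.69 (SE 0.58, adjusted p = 4.6e-07, edgeR). *Sirt6-/-* also exceeded *Atm-/-* (log2 fold change 3.93, SE 0.48, adjusted p = 2.7e-07, edgeR). *Slc2a13* passed the filter only through *Sirt6-/-*, so both calls followed from the filter. With a prior count of 2 the first log2 fold change was 4.34, without WT sample 1 it was 6.52, and without *Atm-/-* sample 1 the second was 4.89. Even so, its level in *Sirt6-/-* was only 0.280 ± 0.0283 normalized RPKM (n = 3).

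*Slc2a9* encodes GLUT9, a urate carrier. It had 14, 8 and 10 reads in WT, 9, 4 and 0 in *Atm-/-*, and 9, 4 and 6 in *Sirt6-/-*, and both mutant-labelled groups overlapped WT. It did not pass the filter in any comparison. The pooled ratio to WT was 0.369 in *Atm-/-* (95% exact interval 0.178 to 0.724) and 0.572 in *Sirt6-/-* (0.306 to 1.04), for counting error only. With *Atm-/-* sample 1 left out, the *Atm-/-* sample with the most reads, it passed the filter and was called lower (log2 fold change -2.47, adjusted p = 0.0343, edgeR). It also passed without WT sample 2 (-1.58, adjusted p = 0.0883, edgeR) and without *Atm-/-* sample 3 (-0.84, adjusted p = 0.289, edgeR), and was not called. Without the filter it was not called either (adjusted p = 0.201, edgeR). The 3 other Slc2a genes in the tables, *Slc2a2*, *Slc2a5* and *Slc2a7*, had 0 to 4 reads in every sample.

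**Figure D3:**
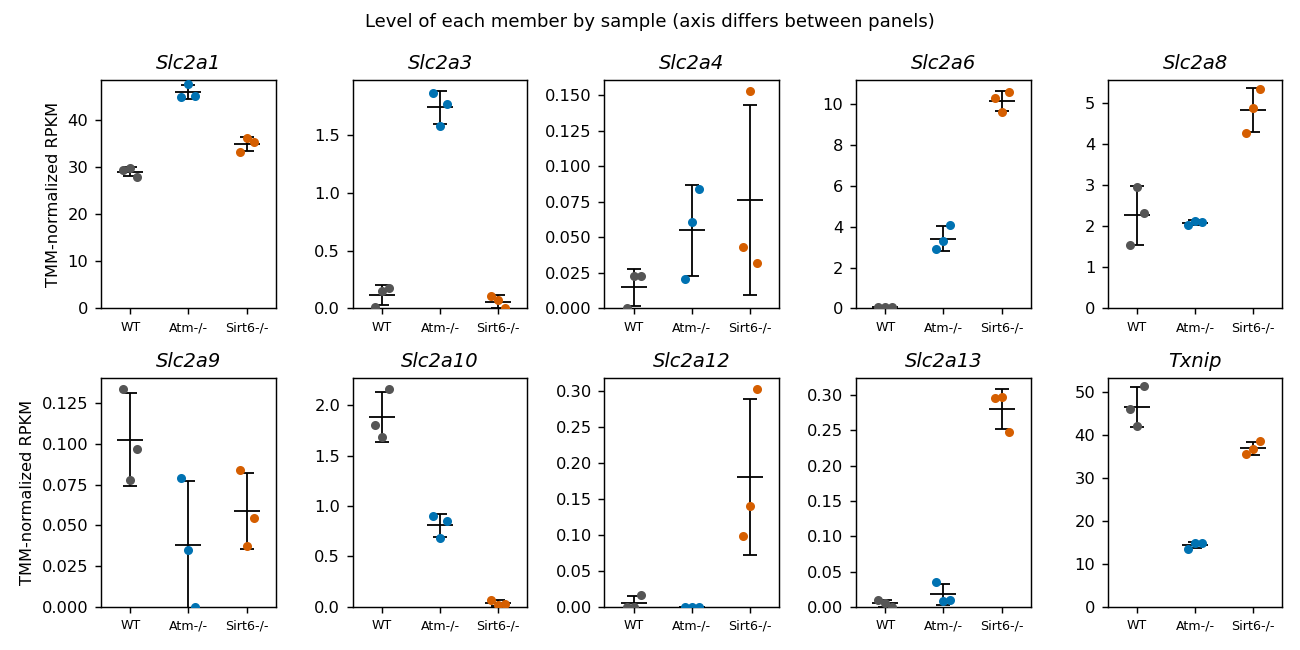
Normalized RPKM (vertical axis, a different scale in each panel) of the 10 members in each of 3 WT, 3 *Atm-/-* and 3 *Sirt6-/-* samples, with lines at the mean and bars of ± SD. *Slc2a6* climbs from WT to *Atm-/-* to *Sirt6-/-*, *Slc2a10* descends in the same order, and *Slc2a3* is high in *Atm-/-* alone.

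*Txnip* was the most abundant of the 10 genes in WT MEFs and fell in both mutant-labelled groups. It had 4118, 3696 and 4533 reads in WT, 1307, 1456 and 1411 in *Atm-/-*, and 3253, 3323 and 3599 in *Sirt6-/-*. No sample of one genotype overlapped another genotype. Its level was 46.6 ± 4.62 normalized RPKM in WT, 14.4 ± 0.809 in *Atm-/-* and 37.0 ± 1.48 in *Sirt6-/-* (mean ± SD, n = 3 each). The fall in *Atm-/-* was 3.25-fold (log2 fold change -1.70, SE 0.07, adjusted p = 3.9e-11, edgeR), against 1.26-fold in *Sirt6-/-* (log2 fold change -0.33, SE 0.07, adjusted p = 0.000319, edgeR). *Sirt6-/-* exceeded *Atm-/-* 2.56-fold (log2 fold change 1.35, SE 0.06, adjusted p = 6.2e-15, edgeR). *Gm15441*, an antisense gene that shares exonic bases with *Txnip*, had 2 to 15 reads per sample.

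Per base, *Txnip* reads were 1.57, 1.42 and 1.84 times those of *Slc2a1* in WT, 0.299, 0.312 and 0.329 times in *Atm-/-*, and 1.07, 1.01 and 1.09 times in *Sirt6-/-*. The ratio thus lay above 1 in WT and *Sirt6-/-* and below 1 in *Atm-/-*, without overlap between genotypes. Mean ratios were 1.61 ± 0.214, 0.313 ± 0.0151 and 1.06 ± 0.0394 (SD, n = 3 each), and each pair of genotypes gave the smallest possible p of an exact two-sided permutation test, 0.1.

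**Figure D4:**
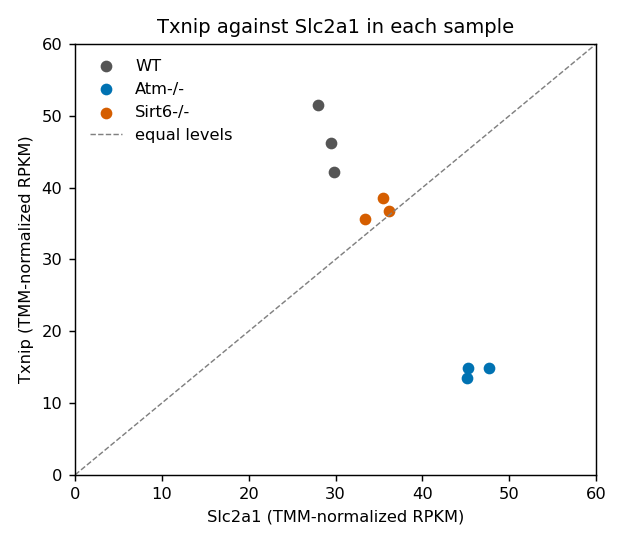
Level of *Txnip* (vertical axis) against that of *Slc2a1* (horizontal axis), both in normalized RPKM, with 1 point for each of the 9 samples and a dashed line at equal levels. The *Atm-/-* points sit low and to the right at 13.5 to 14.9 for *Txnip*, the WT points high and to the left at 42.2 to 51.4, and the *Sirt6-/-* points close to the line.

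Genes around the carriers were read from lists, and each count is given as a description beside a median of 0.02 for all genes in both comparisons with WT. Of all tested genes, 34.7% were called higher and 33.6% lower in *Atm-/-*, and 39.2% and 37.4% in *Sirt6-/-*, so a call on a list was common among all genes. Alpha-arrestins, the relatives of *Txnip*, were called lower in 0 of 4 cases in either mutant-labelled group. Of the 4 tested, 4 rose in *Atm-/-* (median log2 fold change 1.21) and 3 in *Sirt6-/-* (median 1.49). *Arrdc3*, which acts in receptor trafficking, had 238, 245 and 277 reads in WT, 863, 1093 and 888 in *Atm-/-*, and 2576, 2815 and 2600 in *Sirt6-/-*, with log2 fold changes of 1.77 and 3.34. *Arrdc4*, a close relative that also acts on GLUT1, rose in *Atm-/-* (log2 fold change 0.91, adjusted p = 6.8e-05, edgeR) and had -0.37 in *Sirt6-/-* (adjusted p = 0.0584, edgeR). Of the 2 tested partners that pass the glucose signal to *Txnip*, *Mlxip* (MondoA) fell in both mutant-labelled groups, with log2 fold changes of -0.39 and -0.43. *Mlx* rose in *Atm-/-* (0.55) and had 0.12 in *Sirt6-/-* (adjusted p = 0.164, edgeR), where library totals gave it a call as higher.

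The retromer list holds genes of the route that returns GLUT1 to the cell surface, among them *Tbc1d5*, a regulator of retromer. In *Atm-/-* 4 of 7 members were called lower and 2 of 7 higher (median -0.14). In *Sirt6-/-* 6 of 7 were called lower and 0 higher (median -0.41). The counts do not weigh in which direction a gene acts on the route. With library totals these counts were 3 lower and 3 higher in *Atm-/-* and 5 lower in *Sirt6-/-*. *Vps26b* and *Vps35*, subunits of retromer, had log2 fold changes of -0.76 and -0.29 in *Atm-/-* and of -0.59 and -0.50 in *Sirt6-/-*. The subunits *Vps26a* and *Vps29* were called higher in *Atm-/-* (0.23 and 0.14) and lower in *Sirt6-/-* (-0.38 and -0.41). *Tbc1d5*, which regulates retromer through Rab7, had -0.66 and -0.53.

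Genes of glucose phosphorylation and its reversal gave 4 higher of 4 tested in *Atm-/-* and 2 higher and 1 lower of 3 in *Sirt6-/-* (median 1.497). *G6pc3*, a glucose-6-phosphatase that acts against trapping, had 29, 59 and 22 reads in WT, 829, 964 and 937 in *Atm-/-*, and 1094, 1176 and 1314 in *Sirt6-/-* (log2 fold changes 4.49 and 4.97). *Hkdc1*, a hexokinase-like gene with 0 reads in WT, had 16, 11 and 13 in *Atm-/-*. It passed the filter only through *Atm-/-*, so its call there followed from the filter. *Hk1*, a hexokinase, rose in both (1.568 and 1.497). *Hk2*, another hexokinase, rose in *Atm-/-* (0.33) and fell in *Sirt6-/-* (-0.41).

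The GLUT4 vesicle and insulin signalling list split, with 4 higher and 7 lower of 15 tested in *Atm-/-* (median -0.02) and 7 higher and 6 lower in *Sirt6-/-* (median 0.11). With library totals the counts in *Atm-/-* were 8 higher and 7 lower. *Sort1*, the sortilin of GLUT4 vesicles, fell in both mutant-labelled groups (-1.58 and -4.36), as did *Irs2*, an insulin receptor substrate (-1.32 and -2.17). *Lnpep*, the aminopeptidase of these vesicles, also fell in both (-1.07 and -0.68), and *Insr*, the insulin receptor, rose in both (0.49 and 1.30).

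Sugar carriers of other families were read in the same way. Of 8 genes on the sodium-coupled list, 2 were tested, of which 1 rose in *Atm-/-* (median 0.88) and 2 in *Sirt6-/-* (median 1.16). *Slc5a3*, a myo-inositol carrier, had 872, 1002 and 769 reads in WT, 2721, 3196 and 2725 in *Atm-/-*, and 2829, 2884 and 2625 in *Sirt6-/-* (log2 fold changes 1.57 and 1.60, adjusted p = 1.1e-09 and 3.6e-10, edgeR). Both mutant-labelled groups lay above WT and overlapped each other in reads. Among the further sugar carriers, 0 rose and 4 fell of 6 tested in *Atm-/-* (median -0.28, with 2 lower under library totals), and 2 rose and 3 fell in *Sirt6-/-* (median -0.34). *Slc45a3*, a sugar carrier known from prostate, fell in both (-1.95 and -2.70), whereas *Slc50a1*, the SWEET carrier of mammals, had -0.28 and 0.49.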

How the data were processed

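The 9 MEF samples were grouped by the genotype in their labels (3 WT, 3 *Atm-/-*, 3 *Sirt6-/-*). mRNA had been selected with oligo(dT) and sequenced on an Illumina instrument. For every sample the authors deposited whole-number read counts of 24341 genes with a listed transcript length. The deposited RPKM were made by the authors from those counts, that length and one read total per sample. They were checked against the counts and not tested. The build mm10 is named in the submitters' processing notes. The aligner and counting tool are not given in the sources used here, nor whether strand was used.

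Each pair of genotypes was fitted to the deposited counts with edgeR 4.0.16 in R 4.3.3 (filterByExpr with its minimum count of 10, TMM, prior count 0.125, glmQLFit, glmQLFTest, Benjamini-Hochberg adjustment over all tested genes). The fitted fold changes of genes with few reads in a genotype depend on the prior count. Normalized RPKM were computed with TMM factors over all 9 samples. Shares were compared with the exact two-sided permutation test. Intervals of pooled reads are exact conditional binomial intervals at 95%. They and the pooled ratios were scaled by TMM-adjusted library size.

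The genes, lists, motifs and tests were chosen with earlier results of these data known. The text names all 10 members, *Atm*, *Sirt6* and *Trp53* as checks, up to 3 genes of each list (adjusted p under 0.05, mean log2 CPM of at least 3, largest fold change against WT), the remaining Slc2a genes by reads, and the 3 genes most like *Slc2a1* and *Txnip*. *Arrdc4* in *Sirt6-/-* and *Mlx* in *Sirt6-/-* are named as values that missed the test, and *Hkdc1*, *Vps26a*, *Vps29*, *Lnpep* in *Sirt6-/-*, *Insr* in *Atm-/-*, the overlapping genes and the marker genes after their values were seen. Deviations of samples with the same replicate number correlated at most weakly, with r between -0.0175 and 0.101. Mean r for samples with other numbers lay between -0.0258 and 0.00516 in the 3 comparisons. The labels give no batch or date. Alternatives were DESeq2 size factors, library totals, at least 10 counts in every sample, no filter, a single fit of all 9 samples, a block for the replicate number, leaving out single samples, the DESeq2 1.42.0 Wald test, a prior count of 2, and other lengths and denominators of the shares. Experiments of the study other than RNA-Seq of MEFs were not analysed here.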

Additional observations from a re-analysis of the deposited data

How the results depend on the processing

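Of 297 recomputed fold changes of members, 295 kept their direction and their side of the threshold. The 2 that reversed were both *Slc2a8* in *Atm-/-* against WT, which was not significant at -0.12 and became 0.041 with library totals and 0.11 without WT sample 2 (range -0.34 to 0.11 with single samples left out). The 22 values with a prior count of 2 keep the p-values of the main fit and could not change side. A member dropped by a stricter filter gives no value, so only 11 of the 297 come from requiring at least 10 counts in every sample. Requiring at least 10 counts in every sample left fewer members to test, with 1 called higher in *Atm-/-*, 2 higher and 1 lower in *Sirt6-/-*, and 3 higher and 1 lower in *Sirt6-/-* against *Atm-/-*. A prior count of 2 moved *Slc2a12* to 3.15 against WT and 3.63 against *Atm-/-*, and *Slc2a13* to 4.34 against WT, in *Sirt6-/-*. The *Slc2a1* share in *Sirt6-/-* was 71.96% with reads not divided by length. With single samples left out, that share ran from 85.4% to 87.4% in WT, 84.4% to 85.6% in *Atm-/-* and 68.4% to 69.5% in *Sirt6-/-*, the members called lower in *Atm-/-* from 2 to 3, and all genes called from 8545 to 9240, 9651 to 10217 and 9896 to 10007 in the 3 comparisons. The counts of members called higher were unchanged at 3, 5 and 5 with single samples left out.

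Same-numbered samples had deviations from their group means that correlated between -0.0175 and 0.101, and no source says that a number marks a shared culture or day. With the replicate number as a block, 3 members were higher and 2 lower in *Atm-/-*, 5 and 2 in *Sirt6-/-*, and 5 and 3 between the mutant-labelled groups, as without it, and 8833, 10040 and 10157 genes were called in all. Depth limits what can be said of *Slc2a4*, *Slc2a9*, *Slc2a12* and *Slc2a13*, with at most 14 reads per sample in WT.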

Other observations

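Over the 9 samples and 9364 genes compared, the levels most like those of *Slc2a1* by Pearson's r were *Nudt9* (0.994), *Suv39h1* (0.993) and *Gpbp1* (0.992). *H2-T22* (0.998), *Ahdc1* (0.996) and *Kdelr3* (0.996) were most like *Txnip*. The samples fall into 3 genotypes and share their libraries, so these values mostly describe the order of the genotype means.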
